A study of Mus musculus with 12 samples.

Results

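A set of 10 immediate early genes was followed through 12 RNA-seq libraries of mouse eye tissue. They were Egr1, Egr2, Fos, Fosb, Junb, Nr4a1, Ier2, Dusp1, Dusp4 and Arc, which are 10 of the 21930 genes in the deposited count table. The set was chosen by an earlier reading of the same counts, in which several of these genes were lower in fasted than in freely fed mice given PBS and higher in fasted mice given NaIO3 than in fasted mice given PBS. Values of those contrasts are therefore a description and carry no test for these genes. Comparisons with freely fed mice given NaIO3 each reuse a group of those contrasts, so their p-values for these genes are descriptive too.

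All 12 mice were wild-type C57BL/6J males. AL mice had food at all times, and IF mice were fasted and fed on alternate days for 12 weeks from an age of 8 weeks. Each mouse then received a single intraperitoneal injection of PBS or of NaIO3 at 25 mg/kg, an oxidant that injures the retinal pigment epithelium (RPE), and eye tissue was taken 7 days later. The groups AL + PBS, IF + PBS, AL + NaIO3 and IF + NaIO3 held 3 mice each, so that p-values measure the spread between these mice. The hour of collection and whether an IF mouse had been fasting or fed on that day are not given in the sources used here.

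Immediate early genes are transcribed within minutes of a stimulus by factors that are already in the cell, without new protein synthesis, and their transcripts decay quickly. Serum response factor, bound at CArG boxes, and cyclic AMP response element binding protein carry signals of the MAP kinase, calcium and cyclic AMP pathways to their promoters. Many of the products are transcription factors (the EGR, FOS and JUN families and NR4A1), others are phosphatases that switch the MAP kinases off again, and in the retina Fos and Egr1 are known to respond to light and to neuronal activity.

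Promoter windows of 300 bases, from 250 before to 50 after a transcription start, were taken from RefSeq on GRCm38.p6 for Egr2, Fos, Fosb, Junb, Nr4a1 and Dusp1. Entries for Ier2, Dusp4, Arc and Egr1 were not used here. Only 4 windows are shown, those of the genes with the largest difference between IF + PBS and AL + PBS among the 6 and that of Egr2, which holds a CArG box. Capitals mark the core TGACG of the cyclic AMP response element on either strand, the whole element TGACGTCA and, in Egr2 alone, the CArG box. The windows lie at chr12:85473640-85473939 on the plus strand for Fos, at chr15:101266596-101266895 on the plus strand for Nr4a1, at chr17:26508423-26508722 on the minus strand for Dusp1 and at chr10:67537619-67537918 on the plus strand for Egr2.
Fos: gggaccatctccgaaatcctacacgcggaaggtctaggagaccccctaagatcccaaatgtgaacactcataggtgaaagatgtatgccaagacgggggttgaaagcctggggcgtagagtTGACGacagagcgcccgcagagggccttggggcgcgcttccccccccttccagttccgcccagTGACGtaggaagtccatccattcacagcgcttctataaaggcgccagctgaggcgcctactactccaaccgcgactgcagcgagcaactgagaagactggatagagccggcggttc
Nr4a1: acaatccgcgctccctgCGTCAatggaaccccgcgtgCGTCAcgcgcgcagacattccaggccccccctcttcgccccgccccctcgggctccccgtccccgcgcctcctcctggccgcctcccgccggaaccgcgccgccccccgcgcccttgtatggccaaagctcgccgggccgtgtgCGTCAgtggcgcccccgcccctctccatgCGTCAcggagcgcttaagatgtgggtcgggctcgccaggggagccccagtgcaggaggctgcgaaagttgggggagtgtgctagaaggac
Dusp1: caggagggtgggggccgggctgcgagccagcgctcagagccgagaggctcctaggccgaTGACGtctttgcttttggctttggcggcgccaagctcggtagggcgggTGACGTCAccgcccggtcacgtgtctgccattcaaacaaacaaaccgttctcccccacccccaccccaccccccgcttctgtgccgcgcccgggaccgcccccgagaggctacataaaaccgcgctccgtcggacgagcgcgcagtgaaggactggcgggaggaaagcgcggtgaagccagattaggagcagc
Egr2: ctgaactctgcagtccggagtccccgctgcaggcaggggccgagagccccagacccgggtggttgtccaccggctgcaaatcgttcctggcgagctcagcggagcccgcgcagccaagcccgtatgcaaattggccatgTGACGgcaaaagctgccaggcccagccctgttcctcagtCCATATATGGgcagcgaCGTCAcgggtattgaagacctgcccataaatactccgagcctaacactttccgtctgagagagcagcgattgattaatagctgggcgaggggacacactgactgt

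This core was present in a window of each of the 6 genes, and 20.8% of all 32817 windows in the table held it on one strand or the other. Counted by window, 8 of the 10 windows of these genes held the core, and 3 of the 8 are overlapping windows of Egr2. Fos held it from position -129 and from position -66, and Nr4a1 held it at 4 positions between -233 and -36. The whole element TGACGTCA, which contains the core on both strands, was found in Dusp1 from -143 to -136 and in 1.79% of all windows. Among the 5 windows of Egr2, 4 held a CArG box (3 of them overlap and hold the same box), against 1.63% of all windows, and the one shown has it from -72 to -63. Searches on both strands for the AP-1 site TGANTCA (7.81% of all windows), the EGR site GCGTGGGCG (0.612%) and the NR4A site AAAGGTCA (1.51%) found no match in the windows of these 6 genes. These matches describe letters in a window and were not tested as binding sites. Bases outside the windows were not searched, so a site not found here may lie further from the start.

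Library totals ran from 26364665 to 43046950 counts with a median of 31822705, and 3003 genes had 0 counts in each library. Levels below are CPM, the library-scaled counts after TMM adjustment, and levels of different genes are compared as the deposited FPKM, which also divides by gene length. Photoreceptor markers summed to 17325 to 56652 CPM over 10 genes, against 1056 to 2834 CPM for 10 RPE markers, so transcripts of the neural retina, which the label of an RPE, choroid and sclera complex does not name, were abundant in the libraries. AL + NaIO3 replicate 3 stood apart from the other 11 libraries, with the lowest photoreceptor sum (17325 CPM) and the highest sums for choroid and scleral stroma (1391 CPM over 8 markers) and melanocytes (1985 CPM). AL + PBS replicate 2 was alone in its lens transcripts, with 263.7 CPM over 8 markers against at most 7.59 CPM elsewhere. In such bulk libraries, fewer cells of a type and less RNA per cell cannot be told apart.

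On the FPKM scale the most abundant members in AL + PBS mice were Nr4a1 at 24.1 ± 7.97, Fos at 19.9 ± 6.46 and Egr1 at 18.2 ± 7.20 (mean ± SD, n = 3). Dusp1 (16.0 ± 2.52), Ier2 (15.05 ± 1.69), Junb (13.3 ± 3.58) and Dusp4 (10.2 ± 0.289) followed, and neighbours in this order differed by less than the larger SD of each pair. Fosb (1.14 ± 0.258), Arc (0.458 ± 0.0728) and Egr2 (0.0581 ± 0.0392) were far lower. In IF + PBS mice the order was led by Ier2 at 16.3 ± 1.39 FPKM, and Egr1 stood at 4.38 ± 1.08 FPKM.

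**Figure D1:**
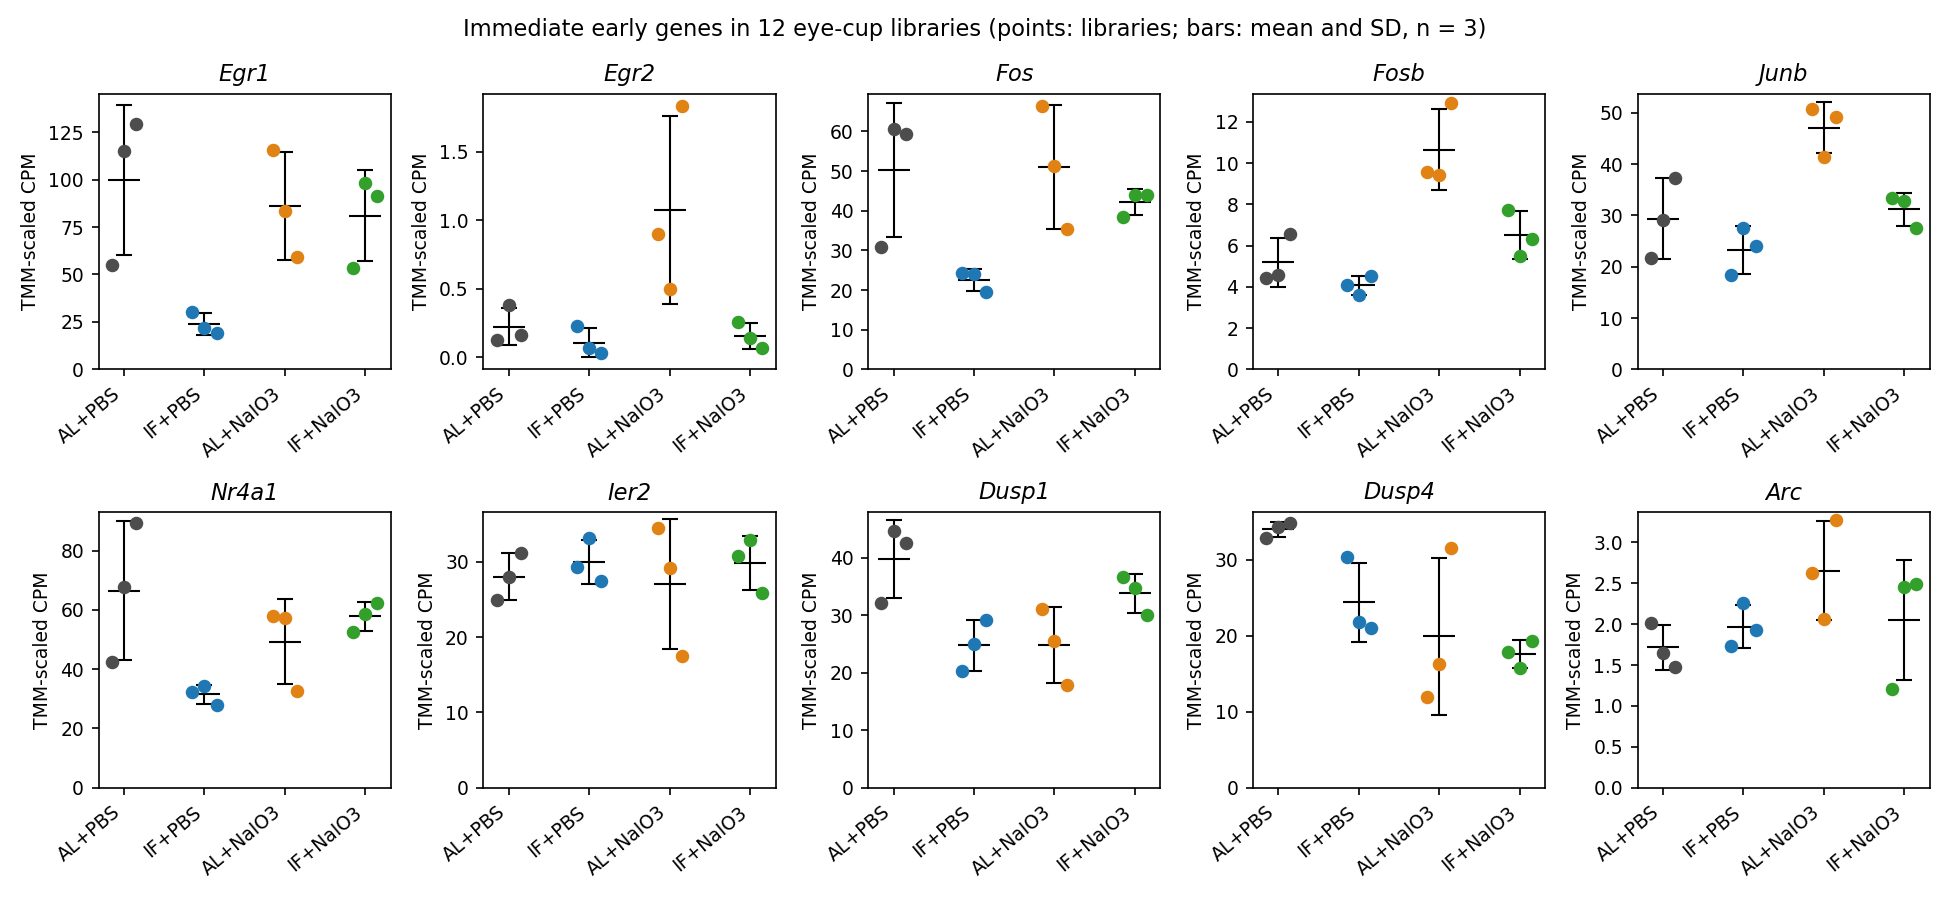
Level of each immediate early gene in TMM-scaled CPM (vertical axes, each from about 0 on its own scale) in the 4 groups, with 1 point per library and bars for the mean and SD (n = 3). Egr1 lay between 19.1 and 30.4 CPM in the IF + PBS libraries and at 53.5 CPM or more in each of the other 9.

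The EGR genes encode zinc-finger transcription factors. Egr1, the best-known member of the family, was at 54.8, 115 and 129 CPM in AL + PBS replicates 1 to 3, at 30.4, 21.8 and 19.1 CPM in IF + PBS, at 116, 83.7 and 59.2 CPM in AL + NaIO3 and at 53.5, 98.3 and 91.3 CPM in IF + NaIO3. The IF + PBS libraries were the lowest 3 of the 12, and the other 3 groups overlapped one another. Mean Egr1 was 0.238 times as high in IF + PBS as in AL + PBS mice (23.8 ± 5.87 against 99.8 ± 39.5 CPM, n = 3 each), a fitted log2 fold change of -2.07 (SE 0.29), and it was 3.41 times as high in IF + NaIO3 as in IF + PBS mice, at 1.77 (SE 0.23) on the log2 scale. In AL mice the injection left Egr1 at 86.2 ± 28.3 CPM, with a log2 fold change of -0.20 (SE 0.34, edgeR adjusted p = 0.883).

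Egr2, which is needed for myelination by Schwann cells, was close to the limit of detection in 3 of the groups. Its counts were 4, 16 and 5 in AL + PBS, 7, 2 and 1 in IF + PBS, 28, 14 and 69 in AL + NaIO3 and 9, 5 and 2 in IF + NaIO3. Only the comparisons that include AL + NaIO3 mice had enough Egr2 counts to pass the filter, so in those comparisons it could enter only because that group was high. Mean Egr2 in AL + NaIO3 mice (1.08 ± 0.685 CPM) was 4.82 times that in AL + PBS mice, with no overlap and a log2 fold change of 2.24 (SE 0.70, edgeR adjusted p = 0.334). In IF + NaIO3 mice it was at 0.155 ± 0.0956 CPM, a log2 fold change of -2.77 (SE 0.75, adjusted p = 0.254) from AL + NaIO3 mice. Without AL + NaIO3 replicate 3 these values were 1.59 and -2.13.

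FOS and JUN proteins pair with each other to form AP-1, which binds DNA near many inducible genes. Fos was at 30.7, 60.7 and 59.4 CPM in AL + PBS, at 24.3, 24.1 and 19.4 CPM in IF + PBS, at 66.5, 51.2 and 35.4 CPM in AL + NaIO3 and at 38.3, 44.0 and 44.1 CPM in IF + NaIO3. As with Egr1, the lowest 3 libraries were those of IF + PBS, and AL + PBS replicate 1 was the nearest to them. The mean was 0.450 times as high in IF + PBS as in AL + PBS mice (log2 fold change -1.15, SE 0.23) and 1.86 times as high in IF + NaIO3 as in IF + PBS mice (0.90, SE 0.12).

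Fosb encodes another FOS family protein. It was at 4.42, 4.58 and 6.57 CPM in AL + PBS, at 4.07, 3.62 and 4.503 CPM in IF + PBS, at 9.59, 9.42 and 12.9 CPM in AL + NaIO3 and at 7.74, 5.48 and 6.31 CPM in IF + NaIO3. Here the AL + NaIO3 libraries were the highest 3 of the 12, and the PBS groups overlapped. Mean Fosb was 2.05 times as high in AL + NaIO3 as in AL + PBS mice (10.6 ± 1.97 against 5.19 ± 1.198 CPM), with a log2 fold change of 1.05 (SE 0.27) that missed the threshold in edgeR (adjusted p = 0.268) and passed it in DESeq2 (adjusted p = 0.0132). IF + NaIO3 lay below AL + NaIO3, with a log2 fold change of -0.72 (SE 0.25, edgeR adjusted p = 0.356).

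Junb, a JUN protein that often restrains the activity of its relative JUN, followed the order of Fosb. It was at 21.6, 29.2 and 37.3 CPM in AL + PBS, at 18.4, 27.5 and 24.1 CPM in IF + PBS, at 50.7, 41.4 and 49.2 CPM in AL + NaIO3 and at 33.4, 32.7 and 27.5 CPM in IF + NaIO3. The AL + NaIO3 libraries again lay above all others. Mean Junb was 47.1 ± 5.01 CPM there, 1.60 times that of AL + PBS mice (log2 fold change 0.69, SE 0.20, edgeR adjusted p = 0.318). IF + NaIO3 mice had 0.663 times the AL + NaIO3 level, with a log2 fold change of -0.61 (SE 0.14) that was not called by edgeR (adjusted p = 0.214) and was called by DESeq2 (adjusted p = 0.0313).

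Nr4a1 encodes an orphan nuclear receptor that acts without a known hormone. It was at 42.5, 67.8 and 89.2 CPM in AL + PBS, at 32.3, 34.3 and 28.0 CPM in IF + PBS, at 57.9, 57.1 and 32.8 CPM in AL + NaIO3 and at 52.7, 58.6 and 62.3 CPM in IF + NaIO3. IF + PBS lay below both AL + PBS and IF + NaIO3, while AL + NaIO3 replicate 3 reached into its range. The mean ratio was 0.474 for IF + PBS against AL + PBS mice (log2 fold change -1.08, SE 0.22) and 1.83 for IF + NaIO3 against IF + PBS mice (0.88, SE 0.11).

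Ier2, a nuclear protein of the same early wave, showed no separation of the groups. It was at 24.9, 27.9 and 31.1 CPM in AL + PBS, at 29.3, 33.2 and 27.4 CPM in IF + PBS, at 34.4, 29.1 and 17.5 CPM in AL + NaIO3 and at 30.7, 32.9 and 25.8 CPM in IF + NaIO3. All 4 groups overlapped, and the fitted log2 fold changes of the 4 comparisons lay between -0.04 and 0.13.

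The DUSP genes encode dual-specificity phosphatases that inactivate MAP kinases. Dusp1 was at 32.1, 44.7 and 42.6 CPM in AL + PBS, at 20.3, 24.9 and 29.2 CPM in IF + PBS, at 31.0, 25.6 and 18.0 CPM in AL + NaIO3 and at 36.6, 34.8 and 30.1 CPM in IF + NaIO3. Its AL + PBS libraries lay above both IF + PBS and AL + NaIO3, and IF + NaIO3 overlapped AL + PBS. The log2 fold change was -0.68 (SE 0.16) in IF + PBS and -0.67 (SE 0.22, edgeR adjusted p = 0.352) in AL + NaIO3, each against AL + PBS, and 0.45 (SE 0.15) in IF + NaIO3 against IF + PBS. The table's Dusp1 range on chromosome 17 overlaps that of Ergic1, so its count is uncertain where reads of the overlap could be assigned to either gene.

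Dusp4 differed from Dusp1 in its course. It was at 32.9, 34.4 and 34.8 CPM in AL + PBS, at 30.4, 21.8 and 21.0 CPM in IF + PBS, at 11.9, 16.3 and 31.5 CPM in AL + NaIO3 and at 17.8, 15.7 and 19.4 CPM in IF + NaIO3. AL + PBS lay above each of the other 3 groups, and IF + NaIO3 lay below IF + PBS, so Dusp4 was the 1 member of the 10 whose IF + NaIO3 libraries were all below AL + PBS (ratio of means 0.519). The log2 fold change was -0.48 (SE 0.15) in IF + PBS and -0.75 (SE 0.33, edgeR adjusted p = 0.489) in AL + NaIO3 against AL + PBS, and -0.47 (SE 0.17) in IF + NaIO3 against IF + PBS. AL + NaIO3 replicate 3, the library with the excess of stroma and melanocyte markers, had the highest Dusp4 of its group. Without that library the log2 fold change in AL mice was -1.27 (SE 0.16, edgeR adjusted p = 0.0154), past the threshold, while the genes called over the whole table went from 12 to 90. The AL + PBS libraries helped to choose this gene, so the call is a description and supports nothing about it.

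Arc encodes a protein of neuronal dendrites that helps to remove glutamate receptors from synapses. It was at 2.02, 1.65 and 1.48 CPM in AL + PBS, at 1.73, 2.25 and 1.93 CPM in IF + PBS, at 2.63, 2.06 and 3.27 CPM in AL + NaIO3 and at 1.20, 2.45 and 2.49 CPM in IF + NaIO3. AL + NaIO3 lay just above AL + PBS, and the other groups overlapped. At the nearest, AL + NaIO3 was at 2.06 and AL + PBS at 2.02 CPM, a gap within the counting error of 58 and 63 counts. The log2 fold change between these groups was 0.64 (SE 0.36, edgeR adjusted p = 0.579).

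**Figure D2:**
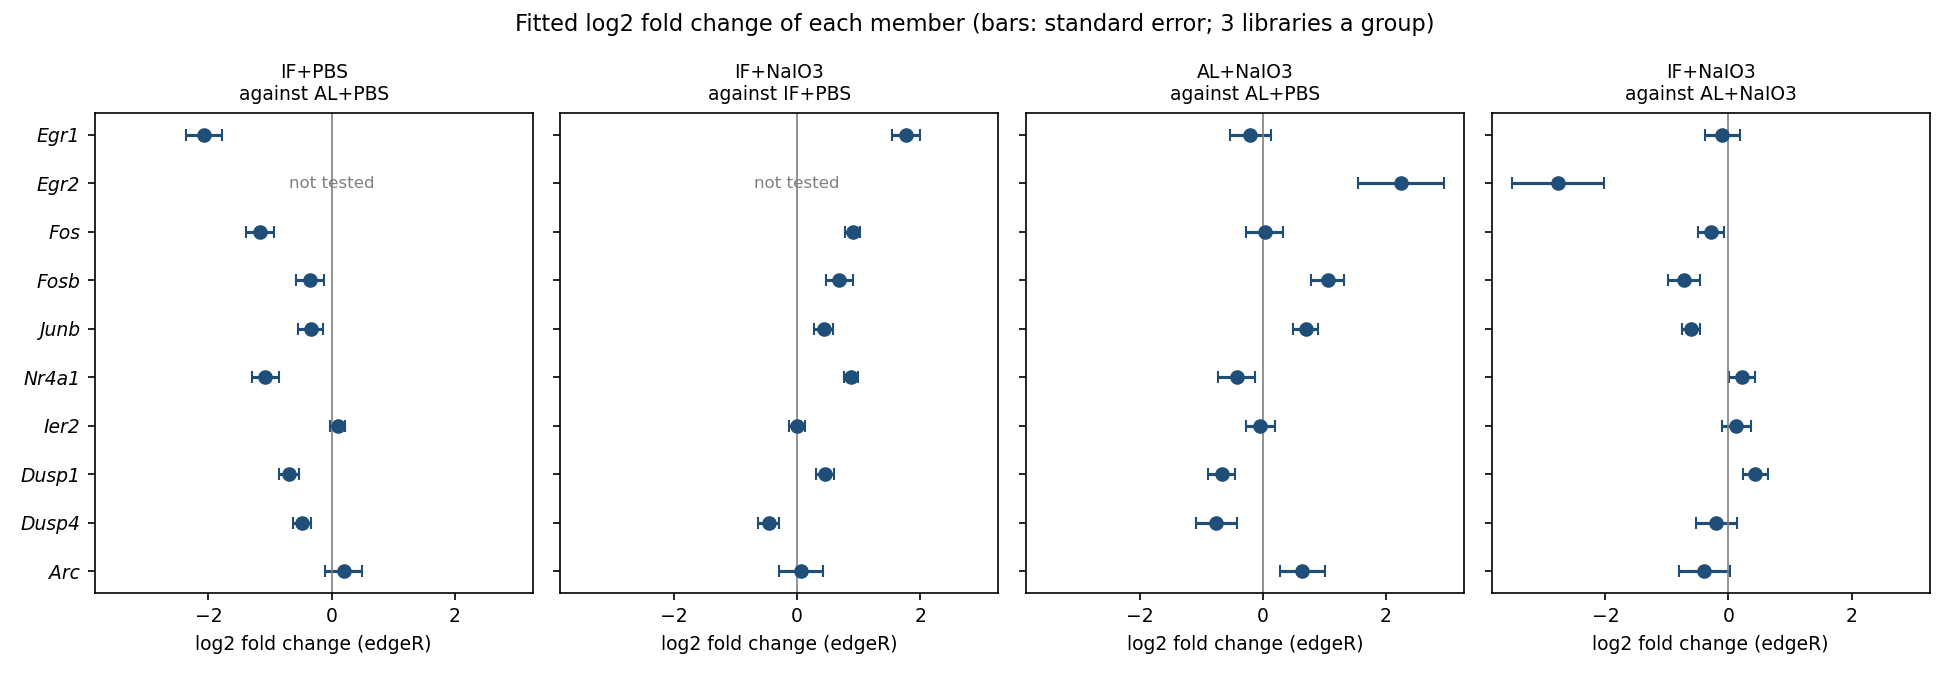
Fitted log2 fold change of each gene (horizontal axis, shared) with its standard error in the 4 comparisons of 3 against 3 libraries. Egr1 lies at -2.07 in IF + PBS against AL + PBS and at 1.77 in IF + NaIO3 against IF + PBS, and Egr2 could not be fitted in these because of its low counts.

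The diet contrast in PBS mice asked what fasting did to the eye without the oxidant. Of the 9 members that passed the filter, 7 had negative and 2 positive log2 fold changes, and the median was -0.48 beside 0.01 over all 15361 genes tested. Egr1, Fos, Nr4a1, Dusp1 and Dusp4 were lower in IF + PBS than in AL + PBS in every library, where 11.2% of all genes were lower and 10.6% higher without overlap. Fosb (-0.35, SE 0.23) and Junb (-0.33, SE 0.20) had smaller negative values, and Ier2 (0.10, SE 0.12) and Arc (0.20, SE 0.30) positive ones. edgeR called 0 members and 0 genes in all (0%), with 2623 genes at an unadjusted p under 0.05. DESeq2 called 164 genes, among them Egr1, Fos, Nr4a1 and Dusp1. These calls use the contrast that chose the genes and support nothing about them.

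AL + PBS replicate 1 was the lowest of its group for 9 of the 10 genes, all but Arc. Without it the Egr1 difference was -2.36 and that of Fos -1.41, and without the library with lens transcripts (AL + PBS replicate 2) they were -1.95 and -0.996. Sums of other markers moved with this contrast. The 8 skeletal muscle markers summed to 130.9 to 286.4 CPM in AL + PBS and to 19.96 to 101.5 CPM in IF + PBS, the 8 stroma markers to 151.3 to 232.2 and 73.2 to 132.1 CPM, and the 5 erythrocyte markers to 65.1 to 84.9 and 41.7 to 57.3 CPM, while the 10 RPE markers summed to 2060 to 2232 and 2304 to 2834 CPM. The 10 photoreceptor markers were lower in IF + PBS by a ratio of 0.932 (43974 to 48865 against 49019 to 51968 CPM) and 8 endothelial markers by a ratio of 0.950, and 10 markers of inner retinal neurons were higher by a ratio of 1.06, all without overlap. Lens markers were lower too, at 2.45 CPM or less against 5.91 CPM or more. No marker of these lists was at 0 in all libraries, and the part of tissue composition in the members' values was not tested.

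The injection contrast in IF mice was the other that chose the set. Of 9 members 7 were positive, with a median of 0.45 beside 0.00 over the 15305 genes tested. Egr1, Fos, Fosb, Junb, Nr4a1 and Dusp1 were higher in every IF + NaIO3 library than in any IF + PBS library, where 10.1% of all genes were higher, and Dusp4 was lower, as were 10.9% of all genes. Fosb (0.68, SE 0.22) and Junb (0.43, SE 0.16) were higher after NaIO3 in IF mice too. Ier2 (-0.0028, SE 0.13) and Arc (0.06, SE 0.36) overlapped between the groups. Here edgeR called 0 members and 0 genes (0%), with 2326 genes at an unadjusted p under 0.05. DESeq2 called 79 genes, Egr1, Fos and Nr4a1 among them, which again supports nothing about genes chosen on this contrast. Both contrasts share the IF + PBS libraries, so a low level in those 3 mice gives opposite signs in the 2 contrasts.

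Beside these, skeletal muscle markers reached 56.6 to 233.7 CPM in IF + NaIO3 mice and overlapped IF + PBS, stroma markers ran from 128.5 to 150.6 CPM, and erythrocyte markers were higher than in IF + PBS at 72.1 to 98.3 CPM. The 10 RPE markers were lower, at 1206 to 2097 CPM. The 7 lymphocyte markers were lower by a ratio of 0.619 (0.693 to 1.54 against 1.76 to 2.09 CPM) and the 10 inner retinal neuron markers by a ratio of 0.937 (1351 to 1464 against 1469 to 1542 CPM), both without overlap.

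The injection contrast in freely fed mice set AL + NaIO3 against AL + PBS, which shares its controls with the diet contrast above. Those AL + PBS libraries helped to choose the set, so p-values and calls of members here are a description. Fosb, Junb and Arc were higher in all AL + NaIO3 libraries and Dusp1 and Dusp4 lower, against 9.67% of all genes higher and 8.64% lower without overlap. Among the 9 members other than Egr2, 4 were positive and 5 negative, and their median log2 value was -0.04 (-0.01 with Egr2), beside 0.01 for the 15612 genes tested. edgeR called 0 members and 12 genes (0.0769%). At an unadjusted p under 0.05 there were 3 of these 9 members, and 1599 genes in all, and DESeq2 called Fosb among 446 genes. Egr2 passed the filter only through its high AL + NaIO3 libraries, so nothing is read from it here. Fos (0.03, SE 0.30, adjusted p = 0.984) and Nr4a1 (-0.42, SE 0.30, adjusted p = 0.664) overlapped between the groups.

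Macrophage and microglia markers (9 genes) summed to 119.9 to 307.2 CPM in AL + NaIO3 and to 54.6 to 57.9 CPM in AL + PBS libraries, and were at 49.3 to 64.7 CPM in IF + NaIO3. The 7 lymphocyte markers summed to 3.52 to 10.5 against 1.18 to 2.23 CPM, and the 6 neutrophil markers to 4.17 to 7.17 against 1.63 to 2.31 CPM. In IF + NaIO3 mice both were below AL + NaIO3, at 0.693 to 1.54 and 0.797 to 2.41 CPM. The 10 RPE markers were lower, at 1056 to 1330 against 2060 to 2232 CPM, and so were the 8 lens markers, at 0.983 to 1.85 CPM against 5.91 CPM or more. Müller cell and astrocyte markers (8 genes) summed to 4931 to 7437 against 4136 to 4628 CPM, and 8 endothelial markers to 328.8 to 602.9 against 280.8 to 294.2 CPM. In IF + NaIO3 mice these 2 sums were 3935 to 4062 and 256.7 to 307.8 CPM, below AL + NaIO3. The group in which Fosb and Junb were highest was thus also highest in leukocyte, glial and endothelial markers, whose part in the result was not tested. Without AL + NaIO3 replicate 3, Fosb kept a log2 fold change of 0.88 and Junb of 0.65 (edgeR adjusted p = 0.207 and 0.280).

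**Figure D3:**
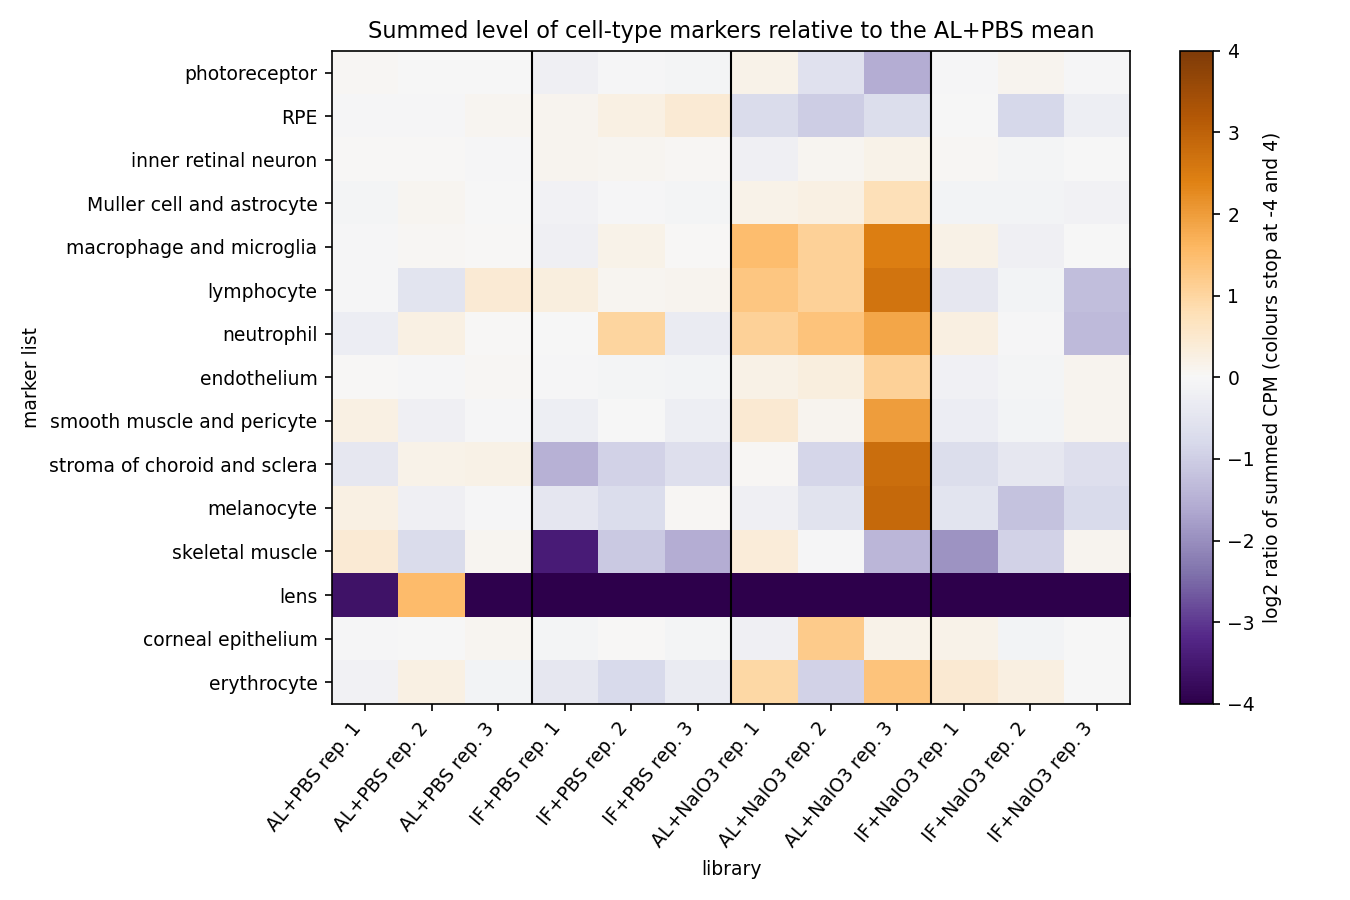
Summed CPM of each cell-type marker list (rows) in each library (columns), as the log2 ratio to the AL + PBS mean, with colours that stop at -4 and 4. Skeletal muscle and stroma rows are low in IF + PBS, macrophage and microglia rows high in AL + NaIO3, and AL + NaIO3 replicate 3 is high in stroma and melanocyte markers. In the lens row AL + PBS replicate 2 sets the mean, and the other 11 libraries lie far below it.

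Diet after the oxidant was compared as IF + NaIO3 against AL + NaIO3. The IF + NaIO3 libraries helped to choose the set, so p-values and calls of members here are a description. Fosb and Junb were lower in every IF + NaIO3 library and 0 members higher, where 10.1% of all genes were lower and 8.88% higher without overlap. The median of the 9 members other than Egr2 was -0.19 (-0.24 with Egr2), with 6 negative, beside -0.01 over 15648 genes. edgeR called 0 members among 6 genes (0.0383%), with 2 of these 9 members, and 1828 genes in all, at an unadjusted p under 0.05, and DESeq2 called Junb among 500 genes. Egr2 passed the filter through AL + NaIO3 here too, and nothing is read from its value. Egr1 (-0.10, SE 0.28, adjusted p = 0.897), Fos (-0.29, SE 0.21, adjusted p = 0.614), Nr4a1 (0.22, SE 0.21, adjusted p = 0.697) and Dusp1 (0.43, SE 0.21, adjusted p = 0.461) overlapped between diets. Scaling by library totals alone moved the median of all genes in this comparison by -0.12 and that of the 10 members, Egr2 included, to -0.36.

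The diet effect in NaIO3 mice minus that in PBS mice was 1.98 (SE 0.47) on the log2 scale for Egr1, 1.31 (SE 0.35) for Nr4a1, 1.13 (SE 0.28) for Dusp1 and 0.88 (SE 0.35) for Fos. It was 0.30 (SE 0.39) for Dusp4, 0.04 (SE 0.29) for Ier2 and -0.26 (SE 0.27) for Junb. For Fosb it was -0.36 (SE 0.33), for Arc -0.57 (SE 0.49) and for Egr2 -1.69 (SE 1.21). Over the whole table edgeR called 5 of 15970 genes for this difference (0.0313%) and DESeq2 210. Since the difference combines the contrasts that chose the members, it is a description of them, with no p, and no call of a member is read from it.

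**Figure D4:**
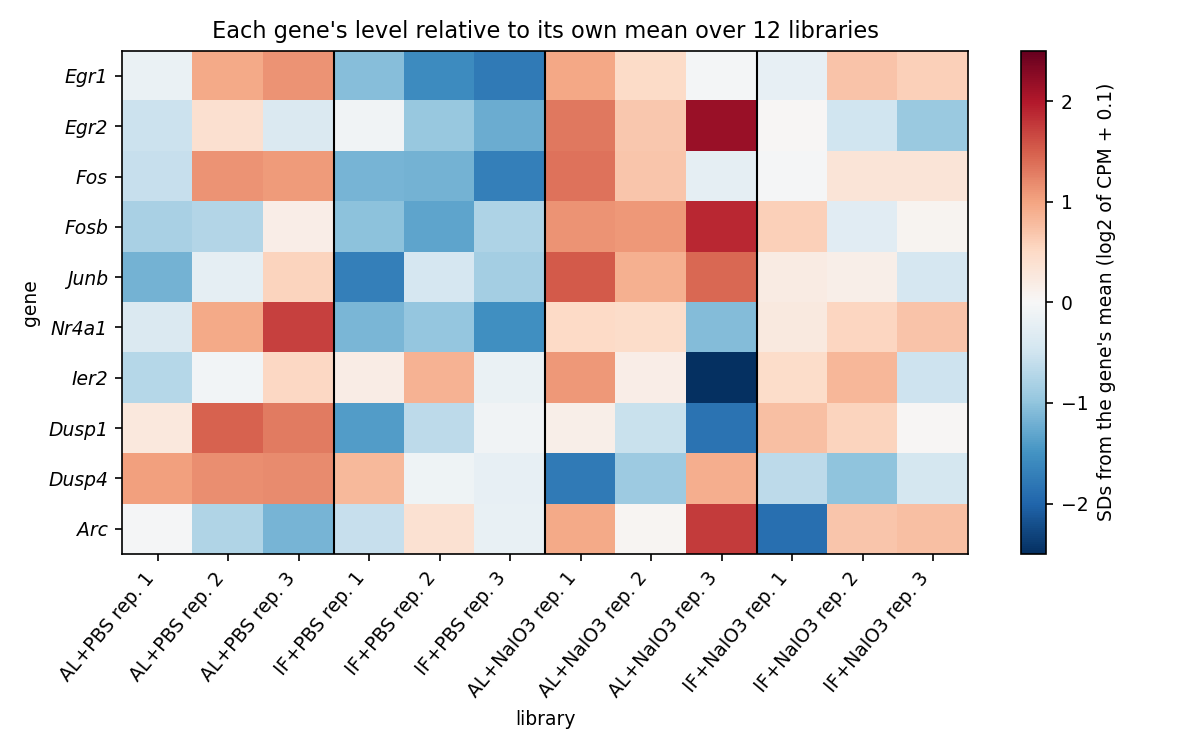
Level of each gene (rows) in each library (columns, in group order), as SDs from that gene's mean over the 12 libraries on the scale of log2 of CPM plus 0.1. Egr1, Fos, Fosb, Junb and Nr4a1 are below their means (blue) in all 3 IF + PBS columns, and Egr2, Fosb and Junb above theirs (red) in all 3 AL + NaIO3 columns.

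Averaged over the 10 genes as SDs from each gene's own mean, the IF + PBS libraries were lowest at -0.71, -0.59 and -0.86. AL + PBS libraries were at -0.31, 0.43 and 0.62, AL + NaIO3 at 0.72, 0.31 and 0.22 and IF + NaIO3 at -0.05, 0.20 and 0.02. The spread within a group also differed. The median coefficient of variation over the 9 members other than Egr2 was 23.1% in AL + PBS, 13.3% in IF + PBS, 29.0% in AL + NaIO3 and 10.3% in IF + NaIO3, which describes 3 mice a group and was not tested.

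Across the 12 libraries Egr1 and Fos moved together most closely (Pearson r = 0.96, and 0.90 after removing group means), followed by Egr1 with Nr4a1 (0.89 and 0.84) and Fos with Nr4a1 (0.89 and 0.92). Fosb and Junb had r = 0.87 over the 12 libraries and 0.43 within groups. Within groups Dusp4 ran from -0.84 with Ier2 and -0.81 with Dusp1 to 0.50 with Fosb and 0.56 with Egr2. AL + NaIO3 replicate 3 had the highest Dusp4, Fosb and Egr2 of its group and the lowest Ier2 and Dusp1 of the 12 libraries. Correlations without that library were not computed. These values share their libraries and scaling and are a description.

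Outside the set, the 5 genes whose log2 CPM followed the members' mean most closely over the 12 libraries were Tmem68 (r = 0.89), Gnai3 (0.88), Zfp354c (0.88), Gem (0.88) and Rlim (0.87). Gnai3, a G protein subunit, was at 46.1 ± 5.74 CPM in AL + PBS, 33.2 ± 1.86 CPM in IF + PBS, 53.2 ± 4.15 CPM in AL + NaIO3 and 46.7 ± 0.889 CPM in IF + NaIO3. Gem, a small GTP-binding protein that is itself induced by stimulation, was at 30.4 ± 4.601, 23.2 ± 0.369, 29.97 ± 1.22 and 30.4 ± 3.31 CPM in the same order. They were picked as the highest of all tested genes, so their likeness carries no test.

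Related genes were described from 7 lists. The partners of the members in AP-1 were near 0 in the diet contrast of PBS mice, with a median of 0.04 on the log2 scale among the 5 of 9 that passed the filter. In AL + NaIO3 against AL + PBS, 6 of 7 were positive with a median of 0.37, and edgeR called 0. Fosl2, a FOS-related protein, was at 14.0, 20.4 and 25.3 CPM (lowest, median and highest) in AL + NaIO3 and at 6.15, 9.51 and 10.7 CPM in AL + PBS, a log2 fold change of 1.19 (SE 0.29, edgeR adjusted p = 0.260, DESeq2 adjusted p = 0.00808). Jund, which is kept at steady levels in many cells, had 0.21 (SE 0.13, adjusted p = 0.417) in IF + PBS against AL + PBS. Batf3, a partner active in dendritic cells, was at 0.797 CPM or less in every library.

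A list of 6 EGR and NR4A relatives, which takes in the EGR-binding cofactors Nab1 and Nab2, had a median of -0.25 in the diet contrast of PBS mice and of 0.28 in the injection contrast of IF mice, and edgeR called 0 in either. Egr3 had log2 fold changes of -0.49 (SE 0.49, adjusted p = 0.631) and 0.99 (SE 0.33, adjusted p = 0.231) in these, and Egr4 of -0.67 (SE 0.33, adjusted p = 0.326) and 0.33 (SE 0.29, adjusted p = 0.601). Nr4a3 was at 7.996, 9.01 and 10.8 CPM in AL + NaIO3 against 3.39, 4.18 and 8.15 CPM in AL + PBS, a log2 fold change of 0.84 (SE 0.36, adjusted p = 0.480). In that comparison the list had a median of 0.35, with 5 of 6 positive and 0 called by edgeR. For the diet by injection difference its median was -0.003, with 3 positive and 3 negative.

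A longer list of 30 other immediate early genes was measured alongside. In IF + PBS against AL + PBS its median was -0.05, with 19 of 30 negative and 0 called by edgeR. In AL + NaIO3 against AL + PBS 23 of 30 were positive, with a median of 0.41 beside 0.01 over all genes, and 0 were called by edgeR. Socs3, a feedback inhibitor of cytokine signalling, was at 16.7, 20.1 and 52.6 CPM in AL + NaIO3 against 3.91, 5.36 and 5.39 CPM in AL + PBS (log2 fold change 2.63, SE 0.45, edgeR adjusted p = 0.123). Gadd45b, a stress response gene, was at 19.2, 19.8 and 30.9 against 4.71, 7.65 and 10.1 CPM (1.65, SE 0.32, adjusted p = 0.175), and Ccn2, a matricellular growth factor, at 78.2, 90.1 and 152 against 27.7, 45.7 and 55.0 CPM (1.33, SE 0.32, adjusted p = 0.259). DESeq2 called all 3 of them, and edgeR did so when the 12 libraries were fitted together, both tried for the lists after seeing the data. Without AL + NaIO3 replicate 3, its highest library, Socs3 had a log2 fold change of 1.91 and edgeR called it (adjusted p = 0.00817). In IF + NaIO3 mice Socs3 was at 3.996, 5.61 and 6.05 CPM and Gadd45b at 8.21, 9.40 and 10.2 CPM, below every AL + NaIO3 library. In the diet contrast of PBS mice Ccn2 was at 19.1, 25.2 and 28.8 CPM in IF + PBS, with a log2 fold change of -0.81 (SE 0.23) that edgeR did not call (adjusted p = 0.188) and DESeq2 did (adjusted p = 0.0141). Ptgs2, which encodes cyclooxygenase, was at 2.36 CPM or less in each library, with a log2 fold change of -2.08 (SE 0.81, adjusted p = 0.247) between IF + PBS and AL + PBS.

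**Figure D5:**
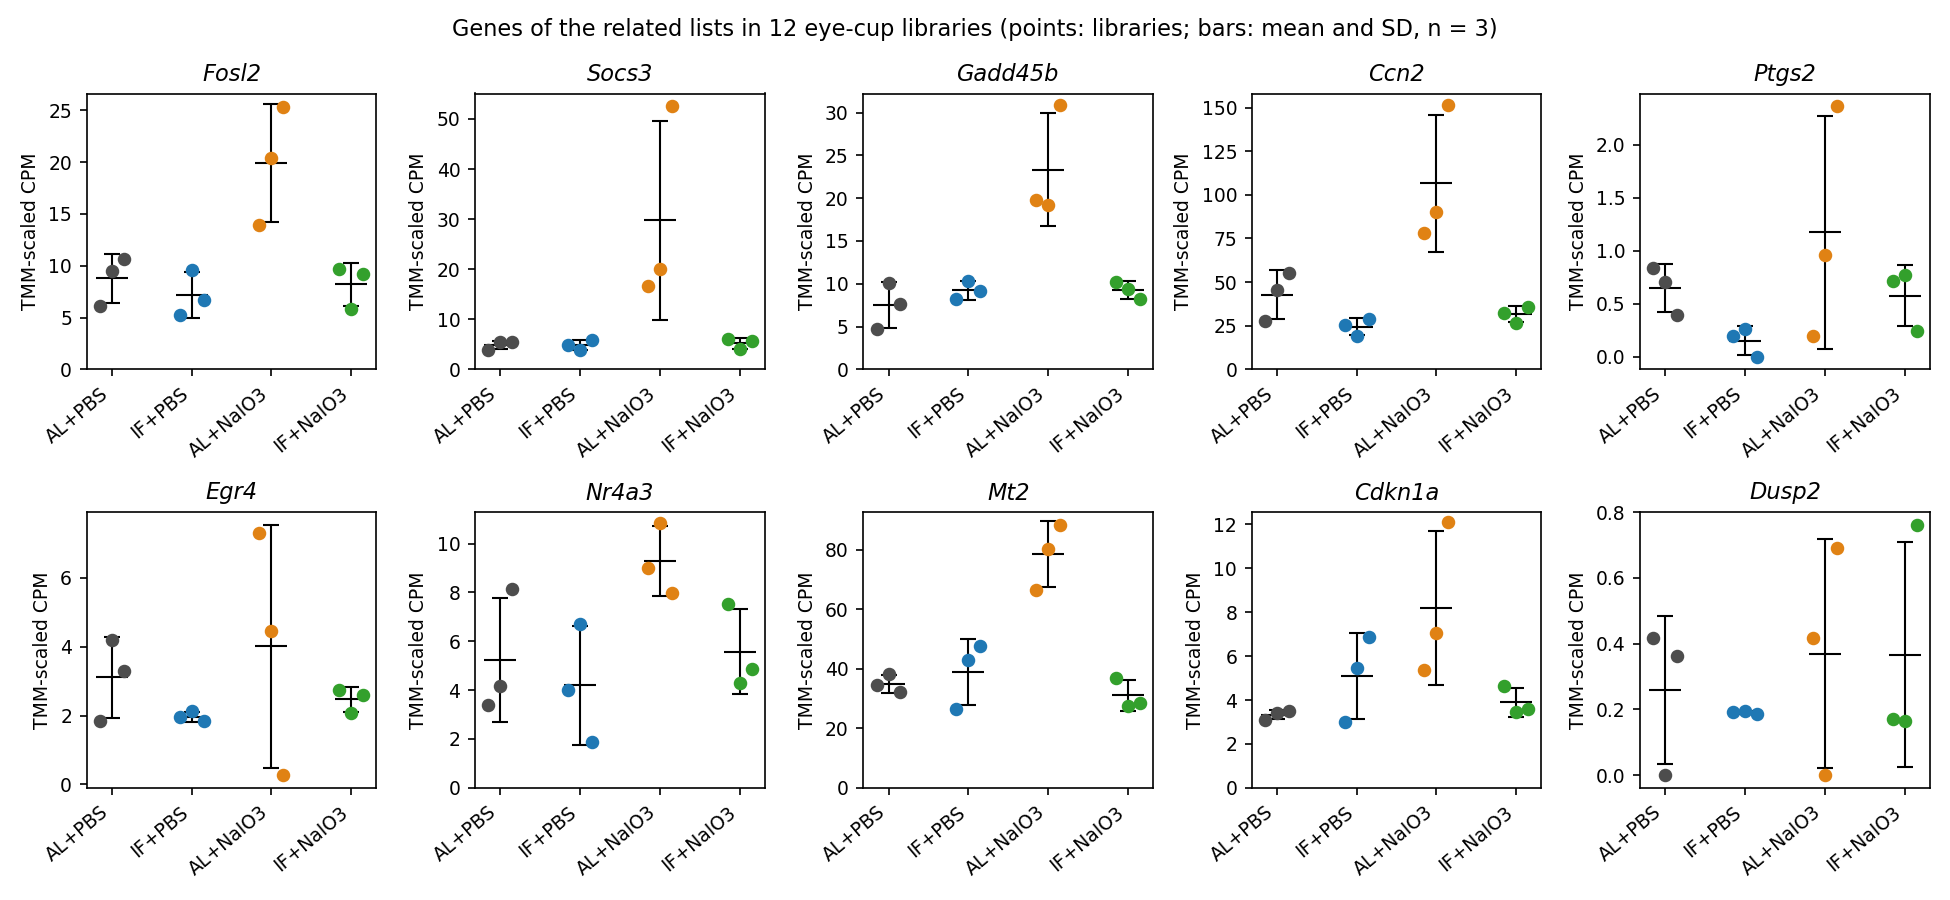
Levels in TMM-scaled CPM (vertical axes) of 10 genes from the related lists in the 4 groups, with 1 point per library and bars for the mean and SD (n = 3). Socs3, Gadd45b, Ccn2 and Mt2 are highest in the 3 AL + NaIO3 libraries and overlap among the other groups.

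Genes of MAP kinase feedback, the class to which the DUSP members belong, had medians of -0.02 in the diet contrast of PBS mice and -0.08 in the injection contrast of AL mice, and edgeR called 0 of 17 and 0 of 18. Spred1, an inhibitor of the pathway, was lower in IF + PBS (91.3, 93.1 and 100 CPM) than in AL + PBS (116, 120 and 136 CPM), with a log2 fold change of -0.39 (SE 0.09, adjusted p = 0.175). Etv4, a target of the pathway, had 0.70 (SE 0.23, adjusted p = 0.205) in the same contrast, and Etv5 had -0.58 (SE 0.17, adjusted p = 0.317) in AL + NaIO3 against AL + PBS. Dusp2, a phosphatase of activated immune cells, was at 0.762 CPM or less in each library.

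Upstream regulators (30 kinases, transcription factors and coactivators that act on these promoters) had medians of -0.05 and -0.06 in those contrasts, with 0 called by edgeR. Crtc2, a coactivator for cyclic AMP signalling, had a log2 fold change of 0.33 (SE 0.13, adjusted p = 0.244) in IF + PBS against AL + PBS, and Rps6ka3, a kinase of the RSK family, of -0.39 (SE 0.36, adjusted p = 0.606). Elk3, a partner of serum response factor, had 0.80 (SE 0.21, edgeR adjusted p = 0.281, DESeq2 adjusted p = 0.0318) in AL + NaIO3 against AL + PBS, and Rps6ka1 had 0.60 (SE 0.24, adjusted p = 0.460).

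Among 9 genes induced by glucocorticoids, edgeR called 1 in AL + NaIO3 against AL + PBS. Mt2, a metal-binding metallothionein, was at 66.6, 80.3 and 88.5 CPM in AL + NaIO3 against 32.1, 34.5 and 38.2 CPM in AL + PBS, a log2 fold change of 1.18 (SE 0.14, edgeR adjusted p = 0.0493). Among the settings under which the call was lost were library totals alone and fits without AL + PBS replicate 1, 2 or 3 or AL + NaIO3 replicate 2. Mt1 had 0.49 (SE 0.11, adjusted p = 0.242), and Cdkn1a, an inhibitor of the cell cycle, 1.31 (SE 0.35, edgeR adjusted p = 0.284), which DESeq2 called (adjusted p = 0.0181). In the diet contrast of PBS mice the list's median was 0.08, with 0 called by edgeR. The 11 heat shock genes had medians of -0.07 in that contrast and in the injection contrast of AL mice, with 0 called by edgeR in both. Hspa8 (0.32, SE 0.10, adjusted p = 0.207) and Hspe1 (0.17, SE 0.15, adjusted p = 0.573) were the chaperones furthest from 0 between IF + PBS and AL + PBS, and Bag3 (1.00, SE 0.37, adjusted p = 0.417) and Hspa1b (-0.43, SE 0.29, adjusted p = 0.654) those between AL + NaIO3 and AL + PBS.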

How the data were processed

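RNA-seq was measured in 12 libraries, 3 mice in each of 4 groups assigned from the sample labels. The authors extracted RNA from eye cups, selected poly-A RNA, sequenced 150-base reads and counted them on genes. The deposited counts are raw whole numbers, and the deposited FPKM values scale them to gene length and library size. The submitters' processing notes name HISAT2, StringTie, DESeq2 and edgeR without versions and GRCm39, whereas the coordinates in the table are those of GRCm38. The labels name a stranded kit, and the use of strand in counting is not given in the sources used here. A table of the authors' own comparison (fold changes and p-values) was not used.

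Counts were tested in R 4.3.3 with edgeR 4.0.16 (TMM factors of 0.934 to 1.14, filterByExpr, quasi-likelihood test on the 6 libraries compared, Benjamini-Hochberg adjustment over all genes tested). A call required a fold change of 1.5 or more together with an adjusted p below 0.05, and for the diet by injection difference, fitted on 12 libraries, only the latter. The scripts were tested on simulated data. The alternatives were DESeq2 1.42.0, upper quartile scaling, library totals alone, no filter, at least 10 counts in each library, the 12 libraries in one fit, the replicate number as a block, and leaving out each library. Within-group pairs of libraries differed by a chi-square of 12.8 to 229 per gene, so none was a duplicate. Counting error weighs most for genes with few counts, such as Egr2 and Arc, and its part in the spread between mice was not measured.

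The members and lists were chosen with earlier results of these data known. Every member is named. From each related list the 2 tested genes with the largest absolute log2 fold change in IF + PBS against AL + PBS and the 2 with the largest in AL + NaIO3 against AL + PBS are named, as are the 5 genes most correlated with the members' mean. Where a symbol was listed more than once (31 symbols), the entry with more reads was used.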

Additional observations from a re-analysis of the deposited data

Results flagged for a closer look

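Effects of the same contrast pointed in opposite directions in different groups for 3 of the 10 members and for 9 of the 25 list genes named above. The count covers only the named genes of the lists, and others of the lists also met the condition. The share of all genes that met it is not given here, so these counts are not read as an excess. In each, every library of one group lay above the mean of its control group and every library of the other lay below the mean of its own. For the 3 members the difference is a description with no test, since the contrasts it combines chose them. For the 9 list genes edgeR's test of the difference gave an adjusted p above the threshold, between 0.095 and 0.537, while DESeq2 called Gadd45b and Mt2. The value given is the fitted diet effect in NaIO3 mice minus that in PBS mice, on the log2 scale, which equals the injection effect in IF mice minus that in AL mice.

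For Nr4a1 (1.31) and Dusp1 (1.13), IF libraries lay below the AL mean in PBS mice and above it in NaIO3 mice, and NaIO3 libraries lay below the PBS mean in AL mice and above it in IF mice. Nr4a1 was at 32.8 CPM in AL + NaIO3 replicate 3, far under the 57.9 and 57.1 CPM of the other libraries of that group. Arc had a value of -0.57, with the diet effect alone pointing in opposite directions.

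Among the related genes, Rps6ka1 (-0.85) and Spred1 (0.62) had both effects opposite. The diet effect was opposite for Etv5 (0.47), Gadd45b (-1.63) and Hspa1b (0.52). The injection effect was opposite for Cdkn1a (-1.68), Jund (-0.41), Mt1 (-0.86) and Mt2 (-1.49).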

How the results depend on the processing

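Alternatives changed no direction of the members' medians in the contrasts of PBS mice by diet and of IF mice by injection. With DESeq2 the number of members called, 0 in edgeR for each comparison, was 4 in IF + PBS against AL + PBS, 3 in IF + NaIO3 against IF + PBS, 1 in AL + NaIO3 against AL + PBS, 1 in IF + NaIO3 against AL + NaIO3 and 3 for the diet by injection difference. Calls in the first 2 of these contrasts, which chose the genes, and in the difference support nothing about them. The same holds for the comparisons with AL + NaIO3, which reuse libraries of those contrasts. Without a filter on low counts the number of members called was 2 in IF + NaIO3 against IF + PBS (Egr1 and Nr4a1), the only genes called of 18272. Leaving out 1 library at a time gave 0 to 4, 0 to 3, 0 to 1, 0 to 0 and 0 to 2 members called in the same order. In IF + PBS against AL + PBS, the 4 came without IF + PBS replicate 1 (Egr1, Fos, Nr4a1 and Dusp4), where calls over all genes went from 0 to 472 of 15602, and 3 came without AL + PBS replicate 1 (Egr1, Fos and Nr4a1), where 5 of 15593 genes were called. In IF + NaIO3 against IF + PBS, the 3 came without IF + PBS replicate 1, among 197 of 15522 genes. For the difference, the 2 came without AL + NaIO3 replicate 1 (Egr1 and Dusp1), among 363 of 16207 genes. The cause was not tested.

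The members' median moved from 0.45 to between 0.33 and 0.59 in IF + NaIO3 against IF + PBS when 1 library was left out, the highest without IF + PBS replicate 3. In AL + NaIO3 against AL + PBS, where it was -0.01, it was between -0.23 and 0.21 without 1 library. With library totals alone it moved from -0.24 to -0.36 in IF + NaIO3 against AL + NaIO3. Signs near 0 turned for single genes. In AL + NaIO3 against AL + PBS, Ier2 became 0.015 with library totals alone, and leaving out 1 library gave -0.50 to 0.026 for Egr1 (positive without AL + PBS replicate 3), -0.23 to 0.23 for Fos (negative without AL + PBS replicate 1 or AL + NaIO3 replicate 1) and -0.26 to 0.18 for Ier2 (positive without AL + PBS replicate 3 or AL + NaIO3 replicate 3). In IF + NaIO3 against AL + NaIO3 it gave -0.31 to 0.17 for Egr1 (positive without AL + NaIO3 replicate 1 or IF + NaIO3 replicate 1), -0.0037 to 0.36 for Nr4a1, -0.10 to 0.35 for Ier2 and -0.45 to 0.31 for Dusp4, whose signs turned without AL + NaIO3 replicate 3. In IF + NaIO3 against IF + PBS, leaving out 1 library gave values on both sides of 0 for Ier2 (-0.085 to 0.085) and Arc (-0.11 to 0.33), as for Ier2 in the diet by injection difference (-0.19 to 0.25). Of 642 values of single members under the alternatives, 620 kept the sign they had in the reported fits and 22 had the opposite sign, and 28 were past the threshold, 11 and 9 of them in the contrasts that chose the genes and 5 in the difference.

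For the related lists, alternatives chosen after seeing the data gave 1 gene called by DESeq2 (0 by edgeR) in IF + PBS against AL + PBS, 8 (1 by edgeR) in AL + NaIO3 against AL + PBS, 7 (0) in IF + NaIO3 against AL + NaIO3 and 3 (0) for the diet by injection difference. Fitting the 12 libraries together gave 4 and 5 in the comparisons with AL + NaIO3, library totals alone gave 0 in AL + NaIO3 against AL + PBS, and no filter gave 1 in IF + NaIO3 against AL + NaIO3. Calls over all genes under these settings in these comparisons are not given here, so nothing about the lists is read from the counts. Leaving out 1 library gave 0 to 2 genes in IF + PBS against AL + PBS, 0 to 1 in IF + NaIO3 against IF + PBS, 0 to 2 in AL + NaIO3 against AL + PBS, 0 to 4 in IF + NaIO3 against AL + NaIO3 and 0 to 6 for the difference.

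The labels give same-numbered libraries nothing in common but the number, and their deviations from group means correlated between -0.10 and 0.14. Whether they shared a batch was not tested. With the replicate number as a block, 0 members were called in each comparison, the members' medians were -0.50, 0.46, -0.02 and -0.17, and the diet by injection median was 0.20. The related lists then had 2 genes called in AL + NaIO3 against AL + PBS (Ccn2 and Socs3, without Mt2) and 1 in IF + NaIO3 against AL + NaIO3. These counts too stand without the calls over all genes, and nothing about the lists is read from them. Egr2, with 1 to 69 counts a library, has the largest counting error of the members.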
